A study of Mus musculus with 8 samples.

Results

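The 42 genes described here encode proteins of the G2 phase and of mitosis, from the kinase that starts division to the rings that end it. They were taken from a list of 42 symbols, all of which were found among the 24013 symbols of the expression table. RNA was sequenced from 8 libraries of mouse intestinal epithelial cells that carried a tdTomato label switched on in Lyz1-expressing cells. All mice were Lyz1CreER; R26R-tdT on a mixed C57/BL6 and 129 background, were 8 to 14 weeks old and had received 1 dose of tamoxifen (10 mg per mouse). Lyz1 encodes the lysozyme of Paneth cells, the antimicrobial secretory cells at the base of the small intestinal crypt, so the label marks cells that expressed Lyz1 when Cre was active and all cells that descend from them. Viable CD45-negative, EpCAM-positive, tdTomato-positive cells were sorted by the surface protein CD24. The groups were CD24+ cells of non-irradiated mice (2 libraries), CD24+ cells of mice irradiated 5 days before (3 libraries), and CD24- cells of irradiated mice (3 libraries), which the submitters call Paneth cell derivatives. The CD24- gate without irradiation was not analysed here, and the irradiation dose is not given in the sources used here.

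Entry into mitosis is driven by the kinase CDK1 bound to cyclin A or cyclin B. The chromosomes are condensed, captured by spindle microtubules at the kinetochores, and held back by the spindle checkpoint until all are attached. The anaphase-promoting complex (APC/C) then marks cyclin B and securin for destruction, the sister chromatids part, and the central spindle guides the cut between the daughter cells. In the crypt, stem cells and transit-amplifying cells divide rapidly, whereas mature Paneth cells and villus cells have left the cell cycle. The genes of this machinery are switched on together late in the cycle, and the transcription factors behind that timing read a short promoter element named CHR together with CCAAT boxes bound by NF-Y.

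The promoters are shown first, because many of them hold the same short motifs. Of the 42 genes, 34 matched a promoter in a RefSeq table of build GRCm38.p6, each covering 250 bases before to 50 after the start of the gene. The letters TTTGAA or TTCGAA, the core of the CHR, were searched on both strands and stood in 27 of the 34 promoters (79.4%), against 13.8% of 8428 promoters of tested genes. The letters CCAAT, also on both strands, stood in 26 of the 34 (76.5%), against 39.3%. Both motifs were present in 24 of the 34 (70.6%), against 5.98% of the 8428 promoters. Among 32 matched promoters of S phase genes, which encode the DNA replication machinery, the CHR core was present in 21.9% and CCAAT in 65.6%, and both in 18.8%. These shares count letters, not bound sites. TTCGAA reads the same on both strands, and CCAAT and its reverse complement ATTGG can share letters. The 150 bases before the start are given for 6 members, 5′ to 3′ on the strand of the gene, with the CHR core and CCAAT, on either strand, in capitals. They were chosen because each carries the CHR core within this stretch and together they cover the kinase, the APC/C activators, a spindle motor and the chromosome proteins. The stretches lie at Cdk1 chr10:69352913-69353062 (minus strand), Cdc20 chr4:118437344-118437493 (minus strand), Ube2c chr2:164769779-164769928 (plus strand), Kif11 chr19:37376232-37376381 (plus strand), Mki67 chr7:135716380-135716529 (minus strand) and Top2a chr11:99024190-99024339 (minus strand) of GRCm38.p6.
Cdk1: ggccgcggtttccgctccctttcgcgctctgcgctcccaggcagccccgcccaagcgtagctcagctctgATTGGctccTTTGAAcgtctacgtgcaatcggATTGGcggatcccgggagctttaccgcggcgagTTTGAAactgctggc
Cdc20: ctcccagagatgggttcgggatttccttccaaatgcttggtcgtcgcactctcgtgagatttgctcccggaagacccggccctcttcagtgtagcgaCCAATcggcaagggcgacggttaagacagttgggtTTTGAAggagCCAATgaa
Ube2c: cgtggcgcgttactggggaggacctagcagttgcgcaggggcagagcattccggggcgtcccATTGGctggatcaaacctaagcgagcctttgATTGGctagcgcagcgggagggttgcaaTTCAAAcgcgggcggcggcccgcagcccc
Kif11: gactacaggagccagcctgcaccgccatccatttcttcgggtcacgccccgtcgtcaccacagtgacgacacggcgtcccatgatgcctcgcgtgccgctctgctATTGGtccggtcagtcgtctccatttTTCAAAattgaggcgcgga
Mki67: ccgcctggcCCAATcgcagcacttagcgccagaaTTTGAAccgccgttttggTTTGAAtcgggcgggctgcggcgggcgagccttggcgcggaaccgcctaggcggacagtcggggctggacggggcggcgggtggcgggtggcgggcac
Top2a: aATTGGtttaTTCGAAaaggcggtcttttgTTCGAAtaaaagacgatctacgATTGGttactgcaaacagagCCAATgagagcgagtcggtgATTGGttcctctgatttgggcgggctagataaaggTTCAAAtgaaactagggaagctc
Counting back from the start, the first base of the CHR core was at position -18 in Cdc20, -29 in Ube2c and -19 in Kif11, and Cdk1 had copies at -71 and -15. In Mki67 both copies lay farther out, at -116 and -98, and Top2a had copies at -140, -120 and -23 in this stretch. These genes were picked for a copy before the start. In other members the only copy in the window lay after it, as at 33 in Aurka, 31 in Plk1, 15 in Bub1, 17 in Cenpa and 9 in Hmmr.

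The values are FPKM, fragments scaled by transcript length and by all mapped fragments of the library, so levels can be compared between genes, but the read depth is unknown. Marker levels differed between the gates. The summed FPKM of 9 Paneth cell markers was 298867 to 441202 in the CD24+ libraries and 3645 to 24184 in the CD24- libraries, while 7 enterocyte markers summed to 426 to 2078 and to 14695 to 33333. The sum of 9 leukocyte markers never passed 5.32 FPKM and that of 6 stromal and endothelial markers 1.15. Erythroid markers summed to 2.79 and 53.1 in the non-irradiated libraries and to at most 0.24 in the others. In the CD24+ libraries, the 100 genes with the highest mean over those libraries held 86.7% to 94.2% of all FPKM, against 19.3% to 31.7% in the CD24- libraries. The scaling between libraries therefore matters most between the gates, and each such result is given on the deposited FPKM and after median-of-ratios scaling, which divides a library by its typical ratio to the mean library. Its factors were 0.519 in non-irradiated replicate 1, 0.853 in non-irradiated replicate 2, 0.848 to 0.966 in the irradiated CD24+ libraries and 1.35 to 1.53 in the CD24- libraries. All 42 genes reached 1 FPKM in at least 2 libraries and were tested.

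Every member was detected in every library, and levels ran from 0.683 FPKM (Cenpf, CD24- replicate 3) to 40.8 FPKM (Ube2c, CD24- replicate 1). Ube2c and Top2a had the highest means over the 8 libraries. The following paragraphs give the members by role, from the start of mitosis to its end, with the libraries in the order of their replicate numbers.

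**Figure D1:**
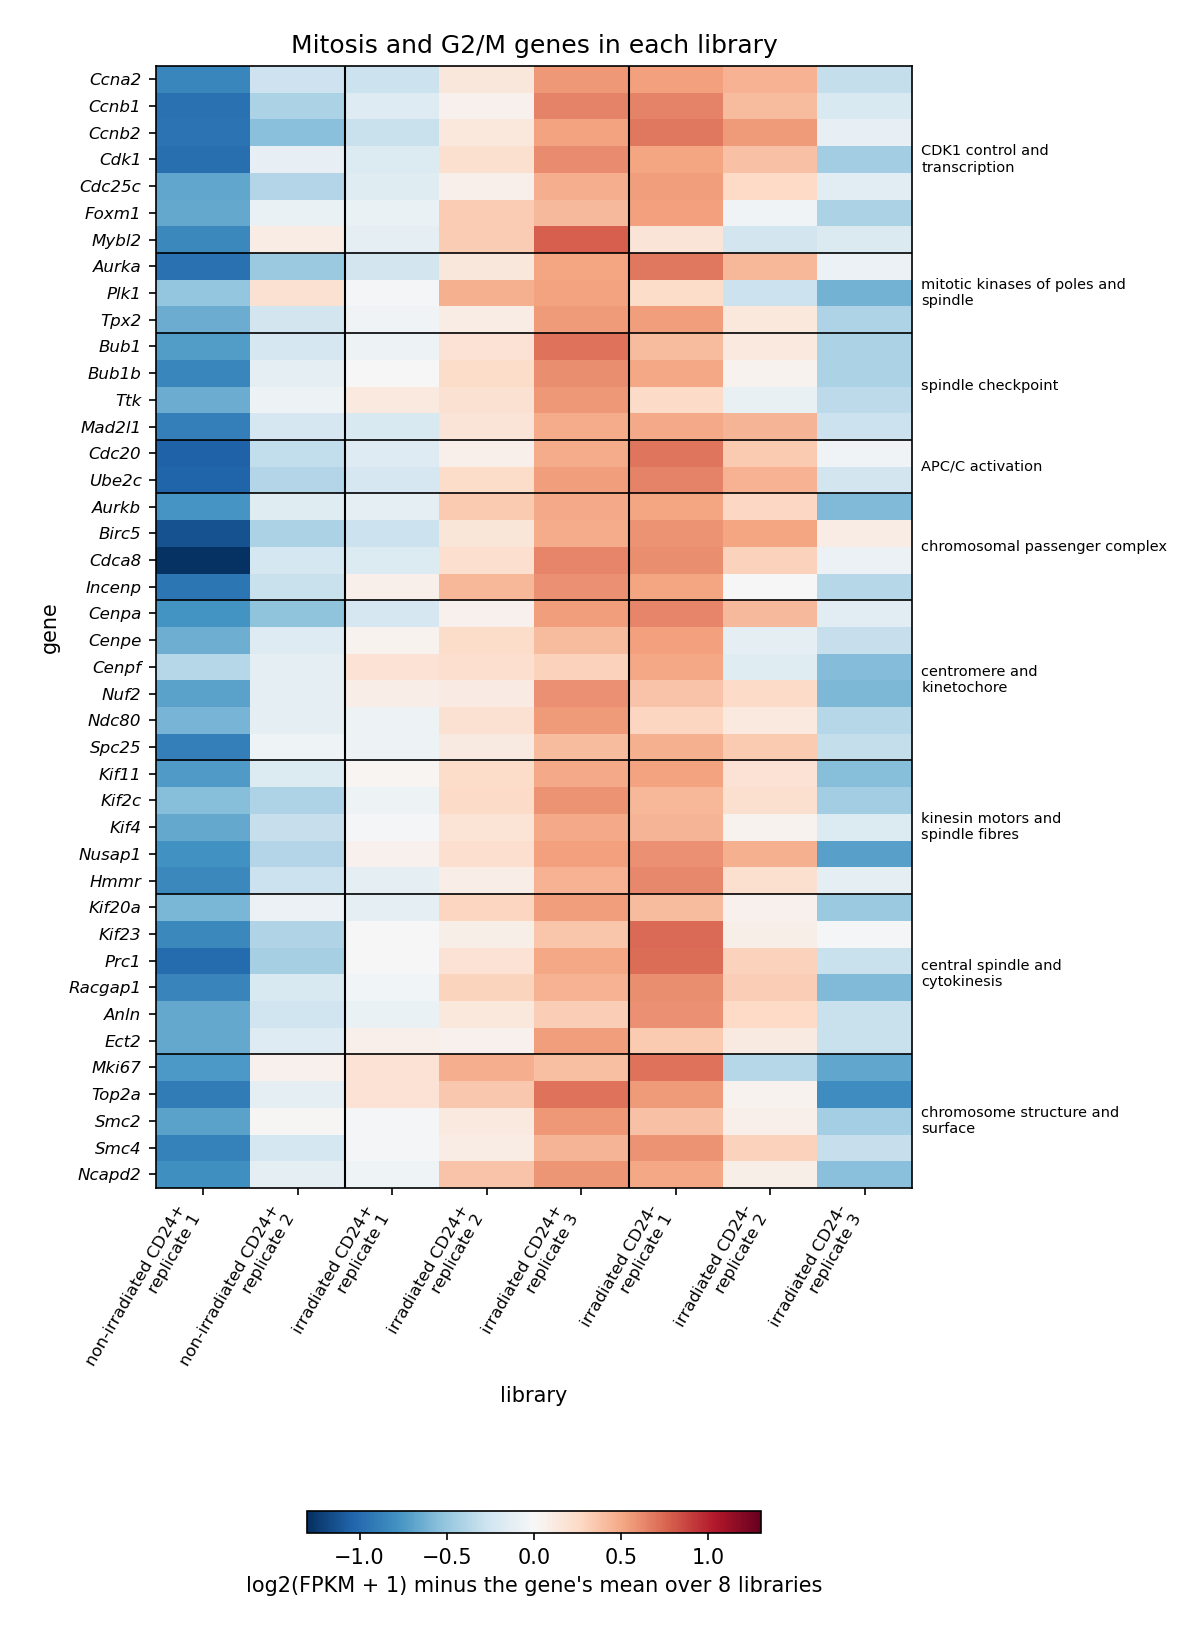
Levels of the 42 genes in the 8 libraries, as log2(FPKM + 1) minus the mean of each gene over all libraries, with genes in rows by role and libraries in columns by group. Non-irradiated replicate 1 is the lowest column of the CD24+ gate for all 42 genes, and CD24- replicate 1 stands above CD24- replicate 3 throughout.

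Among the genes that control CDK1, Ccna2 encodes cyclin A2, the partner of CDK1 and CDK2 in S and G2 phase. Ccna2 stood at 9.56 and 14.8 FPKM in the non-irradiated CD24+ libraries, at 14.7, 20.1 and 27.1 FPKM in the irradiated CD24+ libraries, and at 26.6, 25.0 and 14.3 FPKM in the CD24- libraries. The 3 groups overlapped, with the lowest irradiated library of either gate just under the higher non-irradiated one. Ccnb2, a B-type cyclin, stood at 7.16 and 9.87 FPKM without irradiation, at 11.97, 16.5 and 21.9 FPKM in irradiated CD24+ cells, and at 24.6, 22.2 and 13.8 FPKM in CD24- cells. For Ccnb2, all irradiated libraries lay above both non-irradiated ones, and the irradiated gates overlapped. The other members of this role were lower. Means of Ccnb1 and Cdk1 itself were between 7.01 and 15.5 FPKM in the 3 groups, and those of Cdc25c, the phosphatase that activates CDK1, between 1.02 and 2.44 FPKM. Foxm1 and Mybl2, transcription factors of the G2/M programme, had group means of 1.86 to 4.04 FPKM.

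Aurka encodes the Aurora A kinase of the centrosomes and spindle poles. Its FPKM values were 3.56 and 5.38 in non-irradiated CD24+ cells, 6.55, 8.88 and 11.7 in irradiated CD24+ cells, and 13.4, 11.1 and 7.49 in CD24- cells. All 6 irradiated libraries were above the non-irradiated ones. Plk1, the polo-like kinase that acts from mitotic entry to cytokinesis, had its lowest value in a CD24- library. Plk1 was at 8.99 and 15.3 FPKM without irradiation, at 12.9, 18.5 and 19.3 FPKM in irradiated CD24+ cells, and at 15.7, 10.6 and 8.25 FPKM in CD24- cells. Each pair of groups overlapped. Tpx2, which activates Aurora A on the spindle, had group means of 3.50 ± 0.88 (SD, n = 2), 6.08 ± 1.59 (n = 3) and 5.69 ± 2.13 FPKM (n = 3).

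Of the 4 spindle checkpoint genes, Mad2l1 (MAD2) and Bub1b (BubR1), both parts of the complex that holds back the APC/C, had the highest means. Mad2l1 stood at 5.55 and 9.48 FPKM in non-irradiated CD24+ cells, at 9.59, 12.7 and 15.99 FPKM in irradiated CD24+ cells, and at 16.1, 15.5 and 9.003 FPKM in CD24- cells. Bub1b stood at 3.46 and 6.43 FPKM, at 6.99, 8.48 and 11.2 FPKM, and at 10.4, 7.29 and 5.02 FPKM in the same order. For both genes the irradiated CD24+ libraries were all above the non-irradiated ones, and the CD24- libraries overlapped both other groups. Bub1 and Ttk, kinases that set up the checkpoint at the kinetochore, had group means of 1.71 to 3.82 FPKM.

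Cdc20, which activates the APC/C once the checkpoint is satisfied, was at 5.82 and 10.4 FPKM in the non-irradiated libraries, at 11.6, 13.9 and 18.8 FPKM in irradiated CD24+ cells, and at 21.97, 16.9 and 12.8 FPKM in CD24- cells. Ube2c, the ubiquitin-conjugating enzyme that works with the APC/C, had the highest mean of the 42 genes. Ube2c stood at 12.02 and 19.6 FPKM without irradiation, at 21.99, 30.7 and 38.0 FPKM in irradiated CD24+ cells, and at 40.8, 35.7 and 21.8 FPKM in CD24- cells. Both genes were higher in all 6 irradiated libraries than in either non-irradiated one.

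The chromosomal passenger complex corrects faulty attachments and then moves to the central spindle. Birc5 (survivin), one of its anchoring subunits, stood at 2.51 and 4.78 FPKM in non-irradiated CD24+ cells, at 5.32, 7.56 and 9.71 FPKM in irradiated CD24+ cells, and at 10.6, 9.94 and 7.21 FPKM in CD24- cells. Cdca8 (borealin) stood at 3.95 and 9.29 FPKM, at 9.66, 13.02 and 17.7 FPKM, and at 17.3, 13.8 and 10.4 FPKM. Both had every irradiated library above the non-irradiated ones, although for Cdca8 the gap to non-irradiated replicate 2 was small. Aurkb, the kinase of the complex, stood at 4.37 and 7.16 FPKM, at 7.44, 10.6 and 11.8 FPKM, and at 12.02, 9.96 and 5.13 FPKM. Its CD24- libraries overlapped both other groups. Incenp, the scaffold, had group means of 4.53 ± 1.73 (n = 2), 9.69 ± 1.93 (n = 3) and 7.77 ± 2.74 FPKM (n = 3).

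Cenpa encodes the histone H3 variant that marks the centromere. Cenpa stood at 5.11 and 6.26 FPKM without irradiation, at 8.00, 9.88 and 14.2 FPKM in irradiated CD24+ cells, and at 15.3, 13.1 and 8.49 FPKM in CD24- cells, so that all irradiated libraries were above both non-irradiated ones. Spc25, a subunit of the NDC80 complex that grips microtubules, stood at 2.25 and 4.79 FPKM, at 4.75, 5.55 and 7.02 FPKM, and at 7.31, 6.62 and 3.87 FPKM, with overlap between all groups. Its partners Ndc80 and Nuf2 had group means of 1.98 to 5.14 FPKM. Cenpe, a kinetochore motor, and Cenpf were the lowest of this role, with group means of 1.11 to 2.46 FPKM.

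Kif11, the motor that pushes the spindle poles apart, stood at 3.74 and 5.999 FPKM in non-irradiated CD24+ cells, at 7.05, 8.31 and 10.1 FPKM in irradiated CD24+ cells, and at 10.3, 8.00 and 4.37 FPKM in CD24- cells. Nusap1, which bundles spindle microtubules, stood at 3.71 and 5.24 FPKM, at 7.45, 8.45 and 10.7 FPKM, and at 11.2, 10.2 and 3.99 FPKM. In CD24- replicate 3 both genes lay within the range of the non-irradiated libraries, while the other 2 CD24- libraries lay within or above that of irradiated CD24+ cells. Hmmr, Kif2c and Kif4, which act on spindle poles, microtubule ends and chromosome arms, had group means of 1.94 to 5.80 FPKM.

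Of the genes of the central spindle and cytokinesis, Racgap1, a subunit of centralspindlin, stood at 5.05 and 8.59 FPKM without irradiation, at 9.68, 12.4 and 14.0 FPKM in irradiated CD24+ cells, and at 15.7, 12.7 and 6.40 FPKM in CD24- cells. Prc1, which crosslinks the antiparallel microtubules of the central spindle, stood at 3.64 and 5.91 FPKM, at 8.32, 9.60 and 12.2 FPKM, and at 14.4, 10.4 and 6.61 FPKM. All irradiated libraries were above the non-irradiated ones for Prc1, whereas CD24- replicate 3 was not for Racgap1. Kif23, the other centralspindlin subunit, had group means of 3.74 to 7.84 FPKM. Kif20a, Anln and Ect2, the last of which activates the contractile ring, had group means of 1.72 to 7.48 FPKM.

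Top2a, the topoisomerase that untangles sister chromatids, stood at 10.6 and 18.9 FPKM in non-irradiated CD24+ cells, at 23.8, 26.8 and 34.5 FPKM in irradiated CD24+ cells, and at 31.1, 21.6 and 11.5 FPKM in CD24- cells. Smc4, a condensin subunit, stood at 6.0002 and 9.99 FPKM, at 11.7, 12.8 and 16.4 FPKM, and at 18.3, 14.8 and 9.45 FPKM. Both were higher in all irradiated CD24+ libraries than without irradiation, and CD24- replicate 3 lay between the non-irradiated ones. Mki67, chosen after its values were seen, whose product coats mitotic chromosomes and is the usual marker of dividing cells, stood at 5.39 and 10.1 FPKM, at 11.2, 13.8 and 13.03 FPKM, and at 16.5, 7.30 and 5.70 FPKM. Its level in CD24- replicate 1 was above all CD24+ libraries, and the other 2 CD24- libraries lay below all irradiated CD24+ libraries. Smc2 and Ncapd2, further condensin subunits, had group means of 3.79 to 12.3 FPKM.

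The libraries of a group differed for nearly all members at once. In CD24- cells, replicate 1 held the highest value for 42 of 42 members and replicate 3 the lowest for 41, whereas these libraries were highest and lowest for 50.4% and 51.0% of all 11190 genes. The ratio of a gene's highest to its lowest CD24- library had a median of 1.99 over the 42 genes (range 1.47 to 3.69), against 1.37 over the 11096 tested genes above 0 in all libraries. In irradiated CD24+ cells, replicate 3 was highest for 41 members (42.2% of all genes) and replicate 1 lowest for 41 (59.3%), and the median ratio of highest to lowest was 1.60 against 1.26. Non-irradiated replicate 1 was lower than replicate 2 for all 42 members, as it was for 94.95% of all genes, with median ratios of replicate 2 to replicate 1 of 1.69 for the members and 1.63 for all genes. Marker sums also differed between the libraries of a group, and not in one way in both gates. In CD24- replicates 1, 2 and 3 the 9 Paneth markers summed to 24184, 6729 and 3645 FPKM, the 6 crypt base columnar stem cell markers to 444, 314 and 57.4 FPKM and the 5 goblet markers to 6483, 5545 and 3130 FPKM, the same order as the mitotic genes. The 7 enterocyte markers (14695, 19840 and 33333 FPKM) and the 6 enteroendocrine markers (340, 1036 and 3118 FPKM) had the opposite order there. In irradiated CD24+ replicates 1, 2 and 3 the enteroendocrine sums were 234, 716 and 994 FPKM, in the order of the mitotic genes. The stem cell sums (1245, 1137 and 991 FPKM) had the opposite order. Paneth sums (328164, 299020 and 298867 FPKM) were highest in replicate 1 and nearly equal in replicates 2 and 3. Goblet sums were 8107, 13954 and 12994 FPKM and enterocyte sums 778, 694 and 1216 FPKM in those libraries. No marker of these 5 lists was at 0 in all libraries. Their part in the spread of the mitotic genes was not tested, and in bulk RNA fewer dividing cells and less RNA per dividing cell cannot be told apart.

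The median FPKM of the 42 genes was 3.50 and 5.38 in the non-irradiated libraries, 6.77, 8.38 and 10.4 in the irradiated CD24+ libraries, and 10.7, 7.29 and 5.07 in the CD24- libraries. The group means of these medians were 4.44 ± 1.33 (SD, n = 2), 8.52 ± 1.83 (n = 3) and 7.68 ± 2.81 FPKM (n = 3). After median-of-ratios scaling the medians were 6.74 and 6.30, then 7.99, 8.67 and 11.1, then 6.98, 5.16 and 3.77. On that scale the irradiated CD24+ libraries were highest, all 3 CD24- libraries lay below them, and the non-irradiated libraries lay between or beside. Set against S phase genes of the same library, which no linear scaling can change, the median of the mitotic genes was 0.950 and 0.566 times the median of 40 S phase genes without irradiation. The ratio was 0.866, 0.847 and 0.805 in irradiated CD24+ cells and 1.08, 0.846 and 1.004 in CD24- cells, so the groups overlapped.

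**Figure D2:**
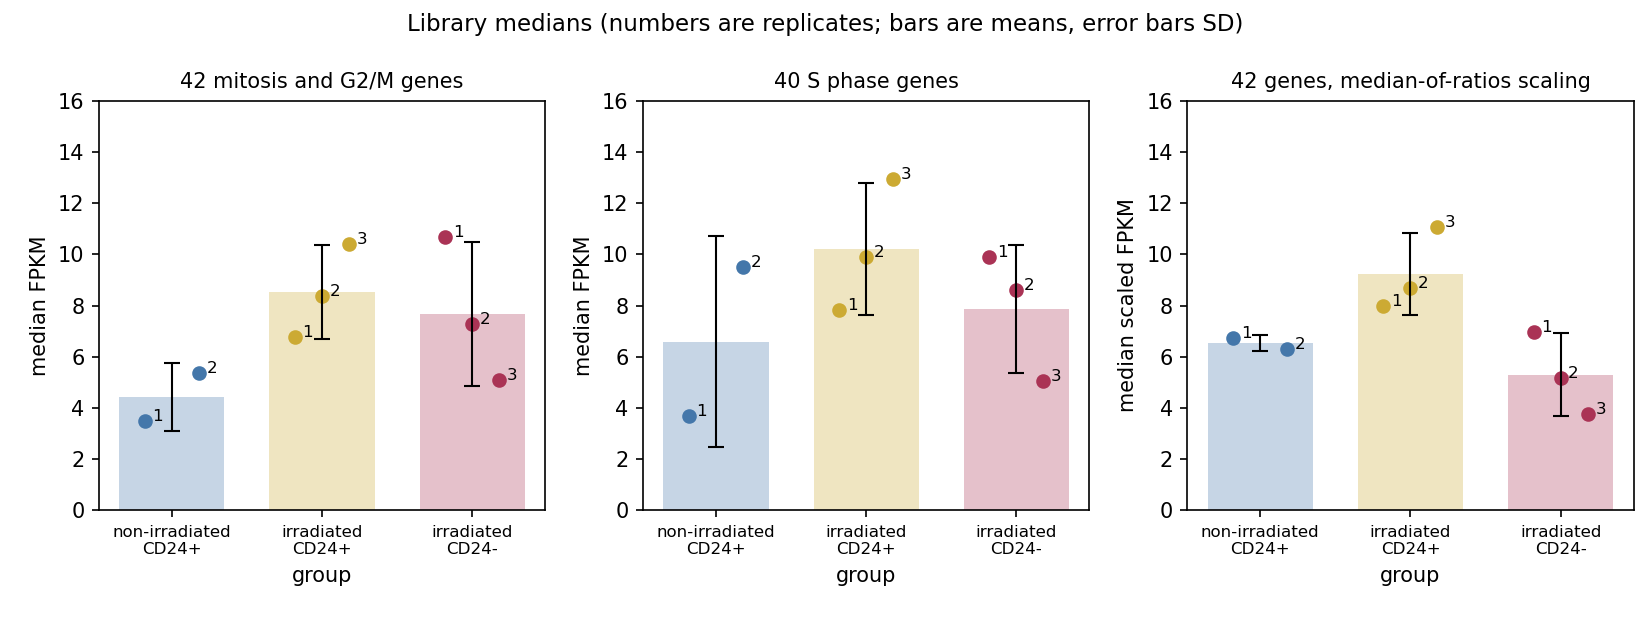
Median level of the 42 mitosis and G2/M genes (left, FPKM), of 40 S phase genes (middle, FPKM) and of the 42 genes after median-of-ratios scaling (right), with 1 point per library numbered by replicate, bars for group means and error bars for the SD. The irradiated CD24+ group has the highest mean in each panel, 8.52 FPKM in the first, and after scaling its 3 points lie above all CD24- points.

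Irradiation within the CD24+ gate was compared first. All 42 mitotic genes were higher on average in irradiated than in non-irradiated CD24+ cells, but none passed the test with limma over all genes. In 35 of the 42 every irradiated library exceeded both non-irradiated ones, against 34.2% of all genes tested. The difference in log2(FPKM + 1) had a median of 0.71 over the members (0.47 for Plk1 to 0.98 for Cdca8), against 0.32 over all genes, 91.7% of which were above 0. Borealin (Cdca8) stood at 6.62 ± 3.77 (SD, n = 2) and 13.5 ± 4.03 FPKM (n = 3), a log2 difference of 0.98 ± 0.34 (SE). Top2a stood at 14.8 ± 5.90 and 28.3 ± 5.51 FPKM (0.93 ± 0.38), and Ube2c at 15.8 ± 5.35 and 30.2 ± 8.03 FPKM (0.90 ± 0.33). Plk1 stood at 12.1 ± 4.46 and 16.9 ± 3.50 FPKM (0.47 ± 0.31).

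In that comparison limma called 0 of the 42 genes and 0% of all 11190 genes, with adjusted p of 0.348 to 0.359 for the members. At an unadjusted p under 0.05, 31 members were higher and 0 lower, against 12.2% and 0.536% of all genes. Relative to the median of all genes, the members' median was 0.38 higher. After median-of-ratios scaling the members' median was 0.37, against -0.03 for all genes, with all 42 above 0 and again 0 called (0.0268% of all genes were called). No member was called under TPM, quantile or outside-top-100 scaling either, where 0%, 0.00894% and 0.00894% of all genes were called higher. The size moved with the non-irradiated library used. Leaving out either leaves 1 library in that group, which the fit assumes to vary like the other groups. Without replicate 2, 21 of the 42 genes and 46.4% of all genes were called higher and the members' median was 1.0035, while without replicate 1 no member was called and the median was 0.42. With the replicate number as a block, 77 genes (0.688%) were called higher and 15 (0.134%) lower, none of them members. This block matches non-irradiated to irradiated libraries by number, a match that was not checked. Of the 9 marker lists, 5 had sums of deposited FPKM that did not overlap between these groups. The sums were not rescaled, and this may depend on the scaling, as non-irradiated replicate 1 had a median-of-ratios factor of 0.519. The 6 enteroendocrine genes summed to 119 and 120 FPKM without irradiation and to 234 to 994 after it, and the 6 crypt base columnar stem cell genes to 551 and 842, then 991 to 1245. The 5 tuft cell genes (20.2 and 26.1, then 5.70 to 15.9), the 9 Paneth genes (356803 and 441202, then 298867 to 328164) and the erythroid genes given above had lower sums after irradiation. A sum does not give the direction of each gene. Lyz1 itself overlapped between these groups, with means of 33954 and 33888 FPKM, and only 1 of the 6 erythroid genes reached 1 FPKM in at least 2 libraries. Sums of the goblet, enterocyte, leukocyte, and stromal and endothelial lists overlapped. Apart from 1 erythroid gene, none of the genes of the 5 lists was at 0 in all libraries, and their part in the difference was not tested.

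**Figure D3:**
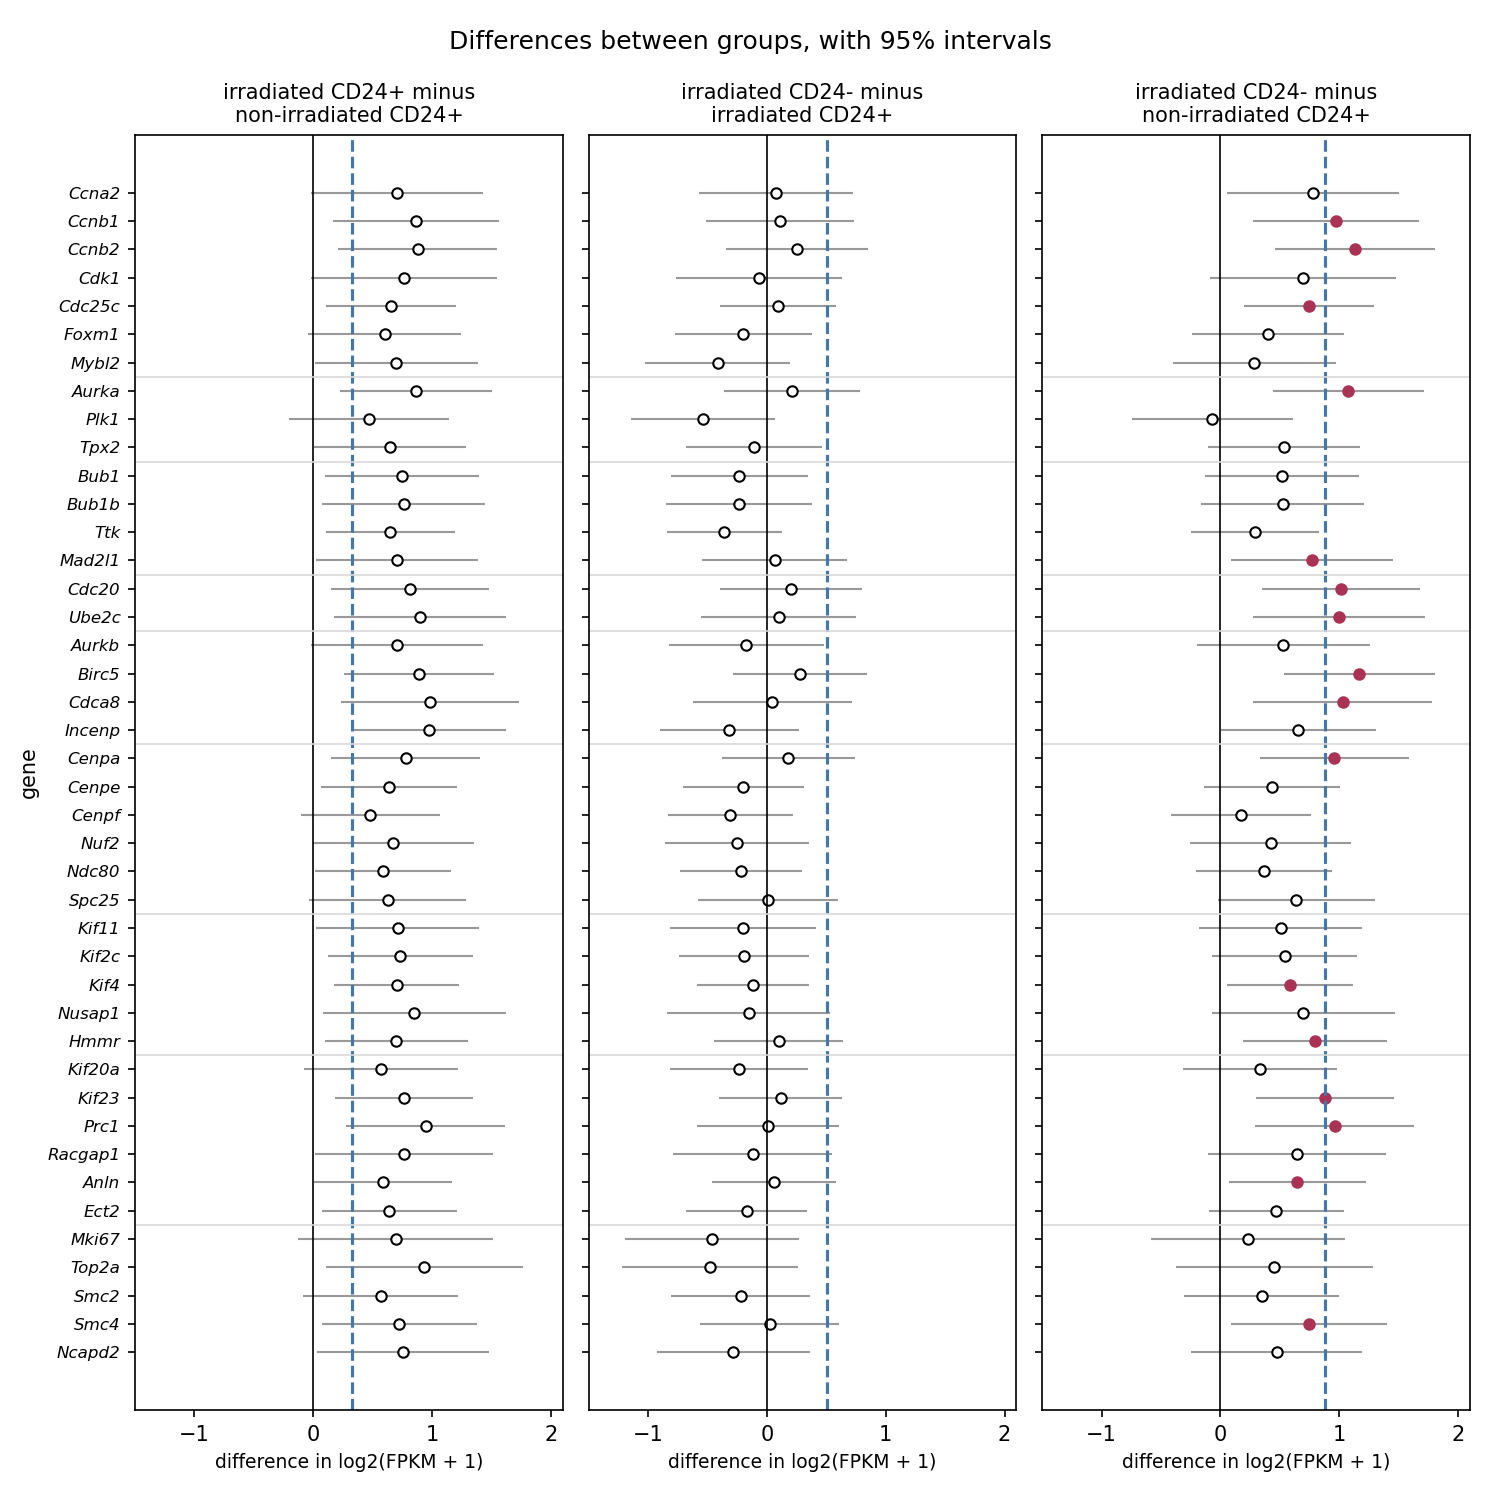
Difference in log2(FPKM + 1) between groups for each of the 42 genes, with 95% intervals from limma as bars, filled points for genes that passed the test, a solid line at 0 and a dashed line at the median of all genes tested. In the left panel all 42 points lie right of the dashed line at 0.32, and in the middle panel all lie left of the dashed line at 0.51.

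Between the irradiated gates, the mitotic genes of CD24- cells stood at about the level of CD24+ cells in FPKM, while 48.6% of all genes were called higher in CD24- cells. After median-of-ratios scaling 27 of the 42 were called lower in CD24- cells, against 27.7% of all genes, and none higher, against 29.9%. On the scaled values the genes of chromosome structure and surface had a median log2 difference of -0.85 and the 2 APC/C activators one of -0.45.

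On deposited FPKM, limma called 0 of the 42 genes in this comparison, against 48.6% of all genes called higher and 7.27% lower in CD24- cells. At an unadjusted p under 0.05 the count was also 0 of 42, against 52.5% of all genes higher and 8.14% lower, and the gates overlapped for all 42, whereas 59.1% of all genes were higher and 9.31% lower without overlap. The members' median difference was -0.14 (range -0.54 to 0.28), with 17 above 0 and 25 below, and all 42 were below the median of all genes, 0.51. The 95% intervals are those of limma on deposited FPKM. They cover the spread between libraries but not the uncertainty of the scaling between the gates, so other scalings gave differences outside some of them. For Birc5, 7.53 ± 2.19 against 9.24 ± 1.78 FPKM in CD24- cells (SD, n = 3 each), the log2 difference was 0.28 with an interval of -0.29 to 0.85 (adjusted p = 0.377). For Plk1, 16.9 ± 3.50 against 11.5 ± 3.83 FPKM, it was -0.54 with an interval of -1.14 to 0.07 (adjusted p = 0.119). For Top2a, 28.3 ± 5.51 against 21.4 ± 9.81 FPKM, it was -0.48 with an interval of -1.22 to 0.26 (adjusted p = 0.250). Leaving out CD24- replicate 3 turned the median to 0.14. Leaving out CD24- replicate 1 gave -0.34, and 3 genes (Plk1, Cenpf and Mki67) were then called lower, against 7.61% of all genes.

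After median-of-ratios scaling, which centres all genes near 0 (median -0.02), 27 of the 42 genes were called lower in CD24- cells and 0 higher, against 27.7% and 29.9% of all genes. The members' median difference was -0.65, and all 42 lay below 0 on that scale, from -1.12 for Plk1 to -0.28 for Birc5. The members called lower were all 5 genes of chromosome structure and surface, 5 of 6 of the centromere and kinetochore, 4 of 6 of the central spindle and cytokinesis, 3 of 4 of the checkpoint, 3 of 5 of the kinesins and spindle fibres, 3 of 7 of CDK1 control, 2 of 3 of the spindle kinases, 2 of 4 of the chromosomal passenger complex and 0 of 2 of APC/C activation. Top2a differed by -1.08 ± 0.27 (SE, limma adjusted p = 0.00905) and Plk1 by -1.12 (adjusted p = 0.00114) on the scaled values. Cenpa (-0.40, adjusted p = 0.146) and Ube2c (-0.51, adjusted p = 0.0688) did not pass. The limma adjusted p was followed over 20 settings for this comparison, without the fits added later within median-of-ratios scaling. It ran from 0.00096 to 0.777 for Top2a, from 0.0002 to 0.338 for Plk1, from 0.0003 to 0.986 for Cenpa and from 0.0013 to 0.973 for Ube2c. Leaving out 1 library at a time, a check added after the data were seen, gave 14 lower calls without irradiated CD24+ replicate 3 (23.2% of all genes) and up to 34 without CD24- replicate 1 (26.7%).

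The direction in which the 42 genes were called depended on the scaling. Rescaled to TPM, which sets the sum of every library to the same total, 37 of the 42 were called higher in CD24- cells, against 89.4% of all genes higher and 2.32% lower, and the members' median was 0.97. With quantile normalization 34 were called lower (30.4% of all genes, median -0.69), and scaled to the sum outside those 100 genes all 42 were called lower (59.7% of all genes, median -1.19). A scaling moves all genes of a library together, so the members' median relative to that of all genes is nearly fixed under it and is not tested by it. That relative median was -0.65 on deposited FPKM, -0.28 with no filter on low values, -0.82 without CD24- replicate 1 and -0.41 without CD24- replicate 3.

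**Figure D4:**
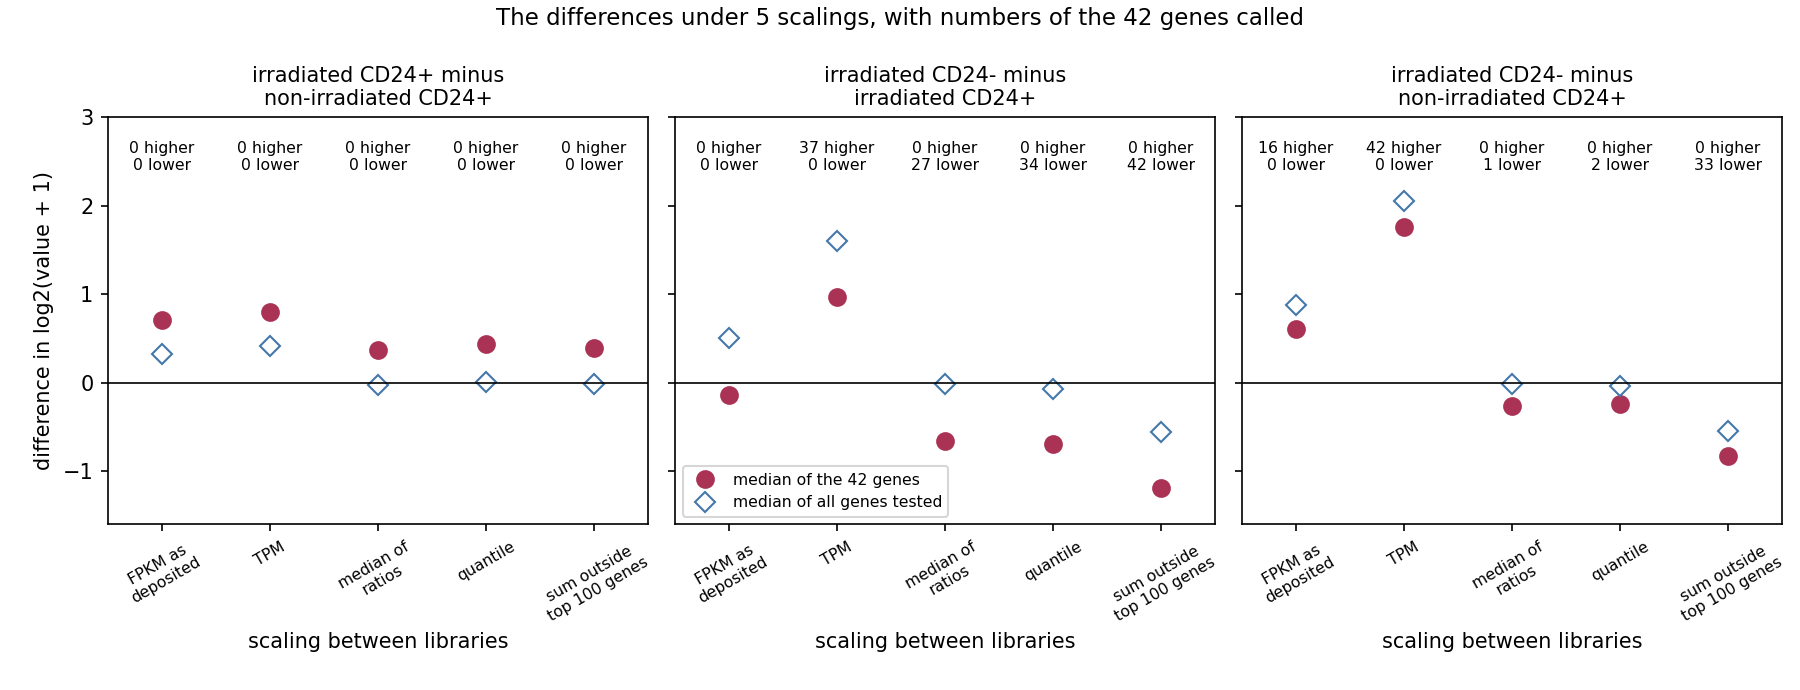
Median difference of the 42 genes (filled) and of all 11190 genes tested (open diamonds) in the 3 comparisons under 5 scalings between libraries, in log2(value + 1), with the numbers of the 42 genes called higher and lower above each point. Between the irradiated gates the calls go from 37 higher under TPM to 42 lower under the sum outside the top 100 genes, while the distance from the filled points to the diamonds, which a scaling leaves nearly fixed by construction, changes little.

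Irradiated CD24- cells were also set against non-irradiated CD24+ cells, where gate and irradiation both differ and cannot be told apart, and where the control libraries are those of the first comparison. In FPKM, 16 of the 42 genes were higher in CD24- cells and 0 lower by limma, against 65.7% and 4.99% of all genes. They were Ccnb1, Ccnb2 and Cdc25c of CDK1 control, Aurka, Mad2l1, Cdc20 and Ube2c, Birc5 and Cdca8 of the chromosomal passenger complex, Cenpa, Kif4 and Hmmr, Kif23, Prc1 and Anln of cytokinesis, and Smc4. For 13 genes every CD24- library was above both non-irradiated ones, against 70.1% of all genes. The members' median was 0.61, with 41 above 0, and that of all genes 0.88, with 88% of them above 0. The members' median relative to all genes was -0.26, but it was 0.23 with no filter on low values and -0.052 without CD24- replicate 3. The largest difference was that of Birc5, 3.64 ± 1.60 (SD, n = 2) against 9.24 ± 1.78 FPKM (n = 3), a log2 difference of 1.17 ± 0.29 (SE, adjusted p = 0.00391). Cenpa differed by 0.96 ± 0.29 (adjusted p = 0.0111) and Ube2c by 0.998 ± 0.33 (adjusted p = 0.0188). Plk1, 12.1 ± 4.46 against 11.5 ± 3.83 FPKM, was the only member below 0 (-0.07 ± 0.31, adjusted p = 0.8496).

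None of the 16 calls was left after median-of-ratios scaling, where only Plk1 was called, as lower (-1.08, adjusted p = 0.00261, 25% of all genes lower and 27.5% higher), and the members' median was -0.26. Over the same 20 settings the limma adjusted p of Plk1 in this comparison ran from 0.00048 to 0.957. Under TPM all 42 were called higher (93.2% of all genes higher and 1.89% lower). Quantile normalization called 2 members lower (Plk1 and Mki67), against 25.8% of all genes, and scaling to the sum outside the top 100 genes called 33 lower, against 55.8%. On deposited FPKM the count was 0 without non-irradiated replicate 1 (49.5% of all genes), 6 without CD24- replicate 1 (58.3%) and 33 without CD24- replicate 3 (67.6%). It was 7 with no filter on low values (42% of all genes) and 3 (Ccnb2, Aurka and Birc5) with library weights (49.9%).

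Some values may hold reads of neighbours, since the library kit keeps no strand and the authors' annotation is not given in the sources used here. In another annotation, GENCODE M21, exons of 13 members overlap those of another gene, 10 of them on the opposite strand. These 10 are Ccna2 (with Exosc9), Cdc20 (Elovl1), Cdc25c (Gm3550), Cdca8 (9930104L06Rik), Kif20a (Cdc23), Kif4 (Pdzd11), Nusap1 (Oip5), Plk1 (Gm44985), Prc1 (Rccd1) and Ube2c (Tnnc2). Ccnb1, Ccnb2 and Kif4 also have named pseudogenes whose reads could have been shared. Values of these genes are uncertain to that extent.

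Other genes of the pathway were followed in 8 lists, 184 of whose 188 symbols were in the table. In none of them did the share called higher in CD24- than in irradiated CD24+ cells reach the 48.6% of all genes. On deposited FPKM 7.27% of all genes were called lower, so 1 lower call in a list of 14 or 17 is near that share. In FPKM 6 of 16 APC/C subunits and inhibitors were higher and 0 lower, for instance Anapc13, at 41.3 ± 4.64 and 79.6 ± 15.6 FPKM in CD24+ and CD24- cells, and not Ube2s (38.7 ± 9.74 and 48.5 ± 6.97 FPKM). Of 17 DREAM and E2F regulators, which repress or activate cell cycle genes, 5 were higher and 1 was lower. The lower one was E2f1, a main activator of S phase genes, at 2.72 ± 0.376 and 1.21 ± 0.601 FPKM, while Rbbp4 and Tfdp1, at 28.8 ± 2.72 and 25.2 ± 5.97 FPKM and at 26.4 ± 4.58 and 26.5 ± 5.57 FPKM, did not pass. Of 14 G1 cyclins, kinases and inhibitors, 4 were higher and 1 lower. Cdkn1a (p21), an inhibitor of cyclin-dependent kinases, was among the higher ones at 35.5 ± 8.57 and 92.4 ± 52.6 FPKM, Cdk6, a G1 kinase, was the lower one at 2.76 ± 0.228 and 1.26 ± 0.328 FPKM, and Cdk4 stood at 86.9 ± 14.5 and 70.1 ± 24.6 FPKM. All these means are over 3 libraries a gate.

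Of 36 other kinetochore and centromere genes 3 were higher (Cenpb, Clasp1 and Cenpl), of 27 other spindle and cytokinesis genes 1 (Kif2a, at 5.76 ± 0.328 and 11.3 ± 1.1998 FPKM), of 16 other condensin and cohesin genes 1 (Stag2, named after its values were seen) and of 15 CDK1 brakes and partners 3 (Ensa, Cdc25a and Arpp19, likewise), with none lower in these 4 lists. Cenpb stood at 29.99 ± 2.95 and 47.6 ± 1.26 FPKM in CD24+ and CD24- cells, and Bub3 of the checkpoint stood at 21.3 ± 2.33 and 26.2 ± 5.11 FPKM. Numa1 and Kif22, Rad21 and Wapal, and Cks2 and Cdca3, the most abundant of the other 3 lists, did not pass. The 40 S phase genes had a median difference of -0.42. Pcna, the sliding clamp, stood at 72.7 ± 14.4 and 89.4 ± 19.7 FPKM and Mcm6, of the replicative helicase, at 30.3 ± 5.08 and 19.3 ± 8.25 FPKM.

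After median-of-ratios scaling, 27.7% of all genes were called lower in CD24- cells. The genes called lower were 33 of 40 in the S phase list (median -0.88), 23 of 36 other kinetochore genes, 19 of 27 other spindle genes and 11 of 16 condensin and cohesin genes. They were 7 of 15 CDK1 brakes and partners, 6 of 16 in the APC/C list, 6 of 17 in the DREAM and E2F list and 5 of 14 in the G1 list. In irradiated against non-irradiated CD24+ cells no gene of the 8 lists passed the test. There the medians in FPKM ran from 0.37 for the DREAM and E2F list to 0.67 for the S phase list, all above the 0.32 of all genes and below the 0.71 of the 42 mitotic genes. Higher without overlap between those 2 groups were 35 of the 42 mitotic genes and 34.2% of all genes. So were 22 of 27 other spindle genes, 19 of 36 other kinetochore genes and 11 of 16 in the APC/C list. The counts were 8 of 15 CDK1 brakes and partners, 6 of 16 condensin and cohesin genes and 7 of 17 in the DREAM and E2F list. They were 5 of 14 in the G1 list and 5 of 40 S phase genes.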

How the data were processed

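RNA was sequenced from 8 libraries in 3 groups, assigned by the labels. The authors deposited 1 table of FPKM per gene and library. The submitters' processing notes name StringTie 1.3.4, TopHat2 2.1.0 and build mm9, and the annotation is not given in the sources used here. The libraries were made, per the labels' protocols, with a kit that keeps no strand information. The deposited FPKM carry no read totals, so depth and counting error are unknown and precision is given only by the spread between libraries. The labels do not say that replicates come from separate mice. The p-values therefore reflect spread between these samples alone, which may be technical.

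Repeated symbols were summed (24015 entries, 24013 symbols), and 11190 genes at 1 FPKM or more in at least 2 libraries were kept. Values were taken as log2(FPKM + 1), which understates fold changes of genes near 1 FPKM. A single model held all 8 libraries (R 4.3.3, limma 3.58.1, eBayes with an intensity trend). Genes passed at a Benjamini-Hochberg adjusted p under 0.05 over all genes tested. SE and 95% intervals are limma's moderated ones. The test was also run on simulated data, whose noise was independent between genes. Those data held no shift shared by the genes of a library, so that run does not bear on the scaling. Alternatives were a pseudocount of 0.1, no filter or a filter at 5 FPKM, TPM, median-of-ratios, quantile and outside-top-100 scaling, library weights, a robust fit, fits of just the compared groups, a replicate block and leaving out each library in turn, with leave-out and block fits within median-of-ratios scaling added after the data were seen.

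The 42 members, the 8 lists of other pathway genes and the 9 marker lists were chosen with earlier results of these data known. Values in every library are given for the 2 members of each role with the highest mean FPKM, for the members with the largest and smallest difference between the irradiated gates, and for Mki67, which lies outside this rule. From each other list the 2 genes with the highest mean FPKM are named, and 1 called against the direction of most of its list, apart from 1 result in the S phase list that is not reported here. Replicate numbers are shared between groups. Residuals of irradiated libraries with the same number correlated across genes, which are not independent, with r of 0.37, 0.23 and 0.40. For unlike numbers r over all genes was -0.38 to 0.05. Residuals are centred within each group, so the values for like and unlike numbers are tied to each other. Over the 42 members alone r was 0.47, -0.18 and 0.18, against -0.73 to 0.45 for unlike numbers. For the members a pairing of the irradiated gates by number is therefore not clear. The main model did not use such a pairing, and only the block fits did. The block spans all 3 groups, and a match with the non-irradiated libraries was not checked. Python 3.11.15 and matplotlib 3.10.9 made the figures. No value column was left unmapped.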

Additional observations from a re-analysis of the deposited data

How the results depend on the processing

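Direction and calls depended mainly on the scaling between libraries and on single libraries, and the cause was not tested. For irradiated against non-irradiated CD24+ cells, the members' median was 0.87 with a pseudocount of 0.1, 0.37 with median-of-ratios, 0.44 with quantile and 0.40 with outside-top-100 scaling. All genes called there were 1 lower with no filter, 5 higher with only these groups fitted, 3 lower with median-of-ratios, and 1 higher and 3 lower with quantile and with outside-top-100 scaling. With no filter the members' median relative to all genes was 0.52 in this comparison, -0.28 between the gates after irradiation and 0.23 for CD24- against non-irradiated CD24+ cells (reversed from -0.26), where 7 members were called higher and 842 genes lower.

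Between the irradiated gates, higher and lower calls over all genes were 10000 and 260 with TPM, 3346 and 3096 with median-of-ratios, 2799 and 3402 with quantile and 1505 and 6686 with outside-top-100 scaling. Lower calls were 401 with the filter at 5 FPKM and 1628 with array weights. Members called were 37 higher with TPM, 27, 34 and 42 lower with the other scalings, and 2 higher (Ccnb2, Birc5) and 7 lower with array weights, with medians of 0.97, -0.65, -0.69, -1.19 and 0.0057. The ratio of mean library medians was 2.14 with TPM and 0.371 with outside-top-100 scaling. For CD24- against non-irradiated CD24+ cells, all genes called were 3078 higher and 2792 lower with median-of-ratios, 2740 and 2883 with quantile and 1489 and 6248 with outside-top-100 scaling, 212 lower with TPM and 287 lower with the filter at 5 FPKM. Members called were 42 higher with TPM, 3 higher with array weights, and 0 higher and 1, 2 and 33 lower with the other scalings, with medians of 1.76 (TPM), -0.26, -0.24 and -0.83. The ratios of mean library medians were 4.56, 0.813, 0.823 and 0.530.

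Reversed single genes between the irradiated gates, with median-of-ratios, quantile and outside-top-100 scaling in turn, were Birc5 (-0.28, -0.35, -0.87), Ccna2 (-0.52, -0.83, -1.16), Cdca8 (-0.54, -0.72, -1.16), Cenpa (-0.40, -0.53, -1.01), Mad2l1 (-0.52, -0.69, -1.14) and Ube2c (-0.51, -0.93, -1.16). With TPM they were Nusap1 (0.98), Plk1 (0.65), Racgap1 (1.05) and Top2a (0.74), and with array weights Nusap1 (0.17) and Racgap1 (0.036). For CD24- against non-irradiated CD24+ cells they were Ccna2 (-0.25, -0.46, -0.87), Cenpa (-0.022, -0.077, -0.61), Mad2l1 (-0.22, -0.32, -0.82), Nusap1 (-0.24, -0.23, -0.80), Racgap1 (-0.33, -0.39, -0.92), Top2a (-0.58, -0.81, -1.197) and Ube2c (-0.051, -0.35, -0.68), Cdca8 with the last 2 (-0.025, -0.54), Birc5 with the last (-0.30) and Plk1 with TPM (1.25).

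Leaving out 1 library gave, for irradiated against non-irradiated CD24+ cells, 0 to 5172 genes higher and 0 to 13 lower, 0 to 21 members higher, medians of 0.42 to 1.0035, medians relative to all genes of 0.25 to 0.52 and, with median-of-ratios scaling, medians of 0.23 to 0.44. Between the irradiated gates it gave 0 to 3 members lower, medians of -0.34 to 0.14, relative medians of -0.82 to -0.41 and, with median-of-ratios scaling, 14 to 34 members lower and medians of -0.79 to -0.44. Ccna2 ranged from -0.13 to 0.35, Cdca8 from -0.15 to 0.25, Mad2l1 from -0.11 to 0.32, Ube2c from -0.10 to 0.36, Nusap1 from -0.39 to 0.26 and Racgap1 from -0.36 to 0.22. For CD24- against non-irradiated CD24+ cells it gave 0 to 33 members higher, medians of 0.32 to 0.87, 1 to 11 members lower with median-of-ratios scaling, and -0.42 to 0.28 for Plk1. The replicate block gave 77 genes higher and 15 lower for irradiated against non-irradiated CD24+ cells (none of them members), 0 members called between the irradiated gates and 22 members higher in the third comparison, and 24 lower between the gates with median-of-ratios scaling. On deposited FPKM the block moved no other count of calls over the members or all genes by more than 1.5 times. With median-of-ratios scaling, all genes called lower in irradiated against non-irradiated CD24+ cells went from 3 to 1. With 2 or 3 libraries a group and unknown depth, differences of the size of the spread between libraries could be missed.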
